A study of Mus musculus with 18 samples.

Results

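miR-335 is a microRNA (miRNA) made from a hairpin inside an intron of Mest, an imprinted gene of mouse chromosome 6. Both mature products of the hairpin, mmu-miR-335-5p and mmu-miR-335-3p (miR-335-5p and miR-335-3p below), were followed here through a mouse model of knee injury. They are 2 of the 1412 mature miRNAs in the count table, and both were among the 428 that passed the filter on low counts. They were chosen by their levels in cartilage of injured knees at day 7, so their high values in those libraries are given as a description, with no test. The other contrasts hold no day 7 injured library and were tested. Of these 5 contrasts, 3 use the naïve libraries that served as the reference for the choice.

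Small RNA was sequenced from femoral condyle cartilage of male C57Bl/6J mice (genotype C57bl6 in the labels) aged 12 weeks. The anterior cruciate ligament (ACL) of the right knee was ruptured by a single load of 12 N. The 18 libraries comprised injured right knees at day 1 (n = 3) and day 7 (n = 3), the contralateral left knees of loaded mice at day 1 (n = 3) and day 7 (n = 3), and knees of naïve mice without load (n = 6), which the labels place at day 7. All groups were wild type, and a contralateral knee belongs to a mouse with an injured joint. Each library was a pool: the series text gives 4 mice per pool, whereas the study's schematic gives 2 mice at day 1, 4 mice at day 7 and 2 knees for naïve mice. Which libraries came from the same mice is not in the labels, so p-values measure the spread between these libraries. The study lists 6 naïve mice, with left and right knees pooled separately, so the 6 naïve libraries share animals and are not independent.

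A miRNA is cut from a folded precursor, and either side of the fold, called the 5p or the 3p arm, can be loaded into an Argonaute protein. The loaded arm then finds messenger RNAs mainly through its seed, the bases near its 5′ end, and lowers their translation or stability. Mest, also called Peg1, is expressed from the paternal allele and is most active in embryonic and mesenchymal tissue. miR-335 has been studied in osteoblast differentiation and as a suppressor of metastasis in breast cancer.

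The sequences of both arms are shown because the arms differ in what they can recognise. They are the RefSeq entries on GRCm38.p6, printed 5′ to 3′ with the seed (bases 2 to 8) in capitals.
miR-335-5p: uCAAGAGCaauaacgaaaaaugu
miR-335-3p: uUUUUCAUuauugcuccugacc
The 5p arm is 23 bases long and lies at chr6:30741314-30741336 on the plus strand, and the 3p arm is 22 bases long and lies at chr6:30741354-30741375. Of the 7 seed bases of the 3p arm, 5 are U, whereas the 5p seed has none. Of 1679 mature mouse miRNAs in the RefSeq table, 0 others shared the seed of either arm. The nearest other mature sequence was 8 single-base edits from the 5p arm (miR-148a-3p) and 6 from the 3p arm (miR-7675-3p), so neither arm has a near-identical copy there with which it could share reads.

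The whole hairpin is shown with both arms in capitals, to place the 2 products on 1 precursor.
Mir335 hairpin: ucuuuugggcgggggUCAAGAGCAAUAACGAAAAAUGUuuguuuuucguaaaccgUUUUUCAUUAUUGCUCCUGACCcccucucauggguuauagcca
It spans chr6:30741299-30741396 (98 bases, plus strand). In the GENCODE annotation of GRCm38, Mest covers bases 30723547 to 30748465 of the same strand, and the hairpin lies in an intron from base 30740825 to base 30742140. The hairpin overlaps 0 exons of the 11 annotated Mest transcripts, and 7 of those transcripts span it. No other annotated miRNA gene lies within 200000 bases. The minimum free energy fold of the hairpin has 18 base pairs between the arms.

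In naïve cartilage miR-335-3p was near the middle of the tested miRNAs by abundance, and miR-335-5p was lower. Normalised abundance is given as CPM, counts scaled to a common library size with TMM, which is not divided by length, and the arms differ by 1 base in length. In the 6 naïve libraries, miR-335-5p had a lowest level of 8.60 CPM, a median of 14.99 and a highest of 20.2. For miR-335-3p these levels were 24.0, 34.6 and 52.9 CPM. The 3p arm was the more abundant in 6 of 6 naïve libraries. By mean CPM in naïve cartilage, miR-335-3p ranked 231 of 428, between miR-376b-5p (36.6 CPM) and miR-21b (35.1 CPM). miR-335-5p ranked 295, between miR-450b-3p (14.9 CPM) and miR-669o-3p (14.7 CPM). These rank neighbours differed from the miR-335 arms by less than the SD of either arm between libraries (3.90 CPM for the 5p arm and 9.49 CPM for the 3p arm, n = 6).

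The day 1 libraries lay in the range of the naïve libraries or close to it. In injured knees at day 1, miR-335-5p was at 22.5, 8.38 and 17.98 CPM and miR-335-3p at 38.6, 30.2 and 37.9 CPM in replicates 1, 2 and 3. In the contralateral knees of day 1, miR-335-5p was at 18.2, 20.7 and 21.4 CPM and miR-335-3p at 26.6, 33.8 and 44.2 CPM. Both groups overlapped with each other for both arms and with the naïve libraries. The lowest 5p value, in day 1 injured replicate 2, rested on 10 counts of 946624.

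In injured knees at day 7 both arms were high in every library. miR-335-5p was at 45.3, 90.1 and 113 CPM in replicates 1, 2 and 3, from 33, 199 and 339 counts. miR-335-3p was at 306, 487 and 501 CPM, from 223, 1076 and 1509 counts. Replicate 1, which had the lowest total of all libraries (758388 counts), was the lowest of the 3 for both arms. Its level was still 2.02 times the highest of the other 15 libraries for miR-335-5p (22.5 CPM) and 5.79 times for miR-335-3p (52.9 CPM).

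The contralateral knees of day 7 held 1 library that stood apart. Replicates 2 and 3 had 18.3 and 19.5 CPM of miR-335-5p and 38.4 and 42.4 CPM of miR-335-3p, within the range of the naïve libraries. Replicate 1 had 1 count of miR-335-5p and 10 counts of miR-335-3p among 1410173. Without TMM scaling these counts correspond to 0.709 CPM for the 5p arm (exact Clopper-Pearson 95% interval 0.0180 to 3.95) and 7.09 CPM for the 3p arm (3.40 to 13.04). The intervals cover counting error only, and their upper ends lie below the lowest TMM-scaled level of the other 17 libraries (8.38 and 24.0 CPM). This library was the lowest of the 18 for 26.9% of all tested miRNAs. It also had the highest miR-199b-5p of all libraries (5026 CPM, against at most 930 elsewhere) and, by the marker lists described further on, the highest summed leukocyte (11356 CPM) and vascular (97625 CPM) levels and the lowest cartilage level (5029 CPM, against at least 6004 CPM elsewhere). The part of these markers in its miR-335 values was not tested. The levels and contrasts of the day 7 contralateral group are therefore given with and without this library.

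**Figure D1:**
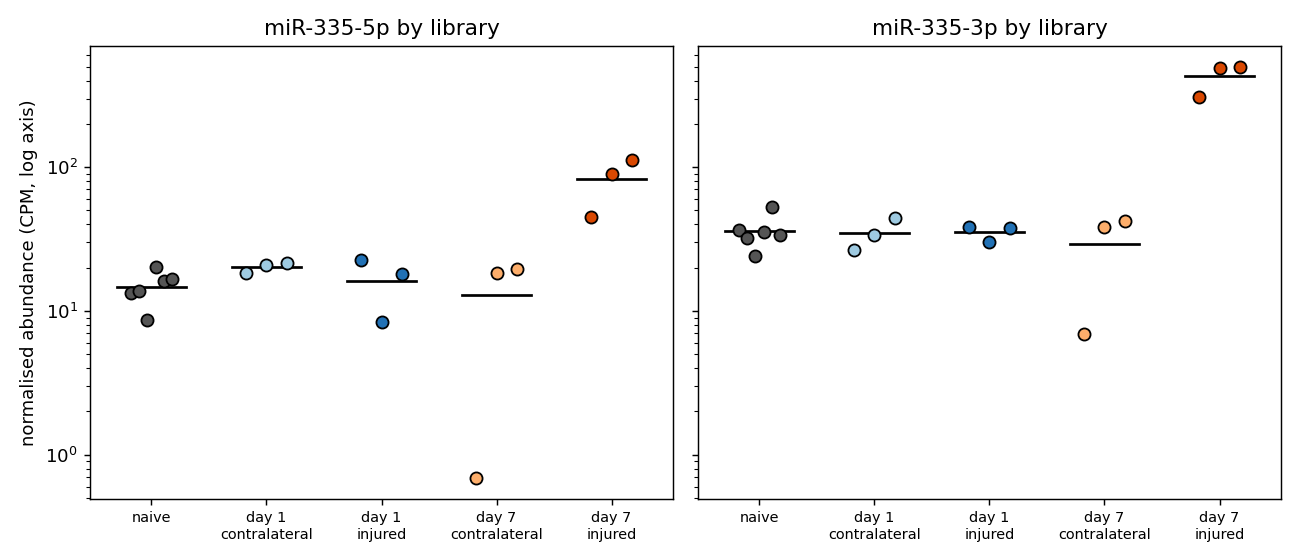
Normalised abundance (CPM, log axis) of miR-335-5p (left) and miR-335-3p (right), with 1 point per library by group and a bar at the group mean. The 3 day 7 injured libraries lie between 45.3 and 113 CPM for the 5p arm and between 306 and 501 CPM for the 3p arm, above the other 15 libraries, and 1 day 7 contralateral library lies far below the rest.

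The order of the groups by mean level differed between the arms below the day 7 injured group. For miR-335-5p the means were 82.7 ± 34.2 CPM in day 7 injured (SD, n = 3), 20.1 ± 1.68 in day 1 contralateral (n = 3), 16.3 ± 7.19 in day 1 injured (n = 3), 14.8 ± 3.90 in naïve (n = 6) and 12.8 ± 10.5 in day 7 contralateral libraries (n = 3). For miR-335-3p they were 431 ± 109 CPM in day 7 injured, 35.8 ± 9.49 in naïve, 35.6 ± 4.70 in day 1 injured, 34.9 ± 8.84 in day 1 contralateral and 29.2 ± 19.5 in day 7 contralateral libraries. Among the 4 groups below the day 7 injured group, the libraries of each pair of neighbours in these orders overlapped. Without replicate 1, the day 7 contralateral means were 18.9 CPM for the 5p arm and 40.4 CPM for the 3p arm.

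The first contrast set injured knees at day 7 against naïve knees and asked what differs a week after injury. It is the contrast by which both arms were selected. miR-335-3p was 12.2-fold higher (log2 fold change 3.60 ± 0.37 SE) and ranked first of 428. The next miRNA in that order was miR-376b-3p at 3.32. miR-335-5p was 5.55-fold higher (2.47 ± 0.51 SE) and ranked seventh, next to miR-369-3p at 2.46. The median of all 428 log2 fold changes was -0.0028. Each of the 3 day 7 injured libraries exceeded each of the 6 naïve libraries for both arms, which was so for 15.4% of all miRNAs tested. In bulk tissue, more RNA per cell and a change in which cells are present cannot be told apart.

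Against the contralateral knees of the same day, miR-335-3p was 17.1-fold higher (log2 4.09 ± 0.44 SE) and miR-335-5p 8.75-fold higher (3.13 ± 0.64 SE). Without day 7 contralateral replicate 1 these values were 10.96-fold and 4.42-fold (log2 3.45 and 2.15). Against injured knees of day 1, miR-335-3p was 11.8-fold higher (3.56 ± 0.43 SE) and miR-335-5p 5.06-fold higher (2.34 ± 0.60 SE). The groups did not overlap for either arm in both contrasts, where 17.5% of all miRNAs lay wholly above the day 7 contralateral libraries (21.3% without replicate 1) and 18.7% wholly above the day 1 injured libraries. Of all miRNAs tested, 12.9% had the day 7 injured libraries above the other 15. These 3 contrasts share the day 7 injured libraries and are not independent of each other.

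The contrasts without day 7 injured libraries were fitted to ask whether miR-335 differed a day after injury or in contralateral knees. In none of the 5 did either arm pass the threshold with limma-voom and Benjamini-Hochberg adjustment over 428 miRNAs. In day 1 injured versus naïve libraries the log2 fold change was 0.13 for miR-335-5p (95% interval -1.07 to 1.33, limma-voom adjusted p = 0.992) and 0.05 for miR-335-3p (-0.79 to 0.88, adjusted p = 0.992). In day 1 injured versus day 1 contralateral libraries the values were -0.35 (-1.68 to 0.98) and 0.08 (-0.88 to 1.03), with limma-voom adjusted p = 0.997 for each arm. The share of all miRNAs called was 0% in each of these contrasts. An unadjusted p under 0.05 was seen for 8 miRNAs in both.

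The contralateral and naïve libraries were compared in the same way. In day 1 contralateral versus naïve libraries, the log2 fold change was 0.48 for miR-335-5p (95% interval -0.66 to 1.62) and -0.03 for miR-335-3p (-0.85 to 0.79), with limma-voom adjusted p = 0.996 for both. In day 7 contralateral versus naïve libraries it was -0.66 (-1.94 to 0.63, limma-voom adjusted p = 0.759) for the 5p arm and -0.49 (-1.33 to 0.35, adjusted p = 0.717) for the 3p arm. In day 7 versus day 1 contralateral libraries it was -1.14 (-2.54 to 0.27, limma-voom adjusted p = 0.750) and -0.46 (-1.42 to 0.50, adjusted p = 0.916). Without day 7 contralateral replicate 1 the values against naïve libraries were 0.37 and 0.20, so their direction rests on that library. Against day 1 contralateral libraries they were -0.061 (5p) and 0.28 (3p) without it, so the 5p value of -1.14 also rests on it. Again 0% of all miRNAs were called in each of these 3 contrasts by limma-voom, with 4, 23 and 25 at an unadjusted p under 0.05. edgeR's quasi-likelihood test called 0 in all 5 contrasts, and DESeq2 called 0, 0, 0, 1 and 2 in the order given here.

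**Figure D2:**
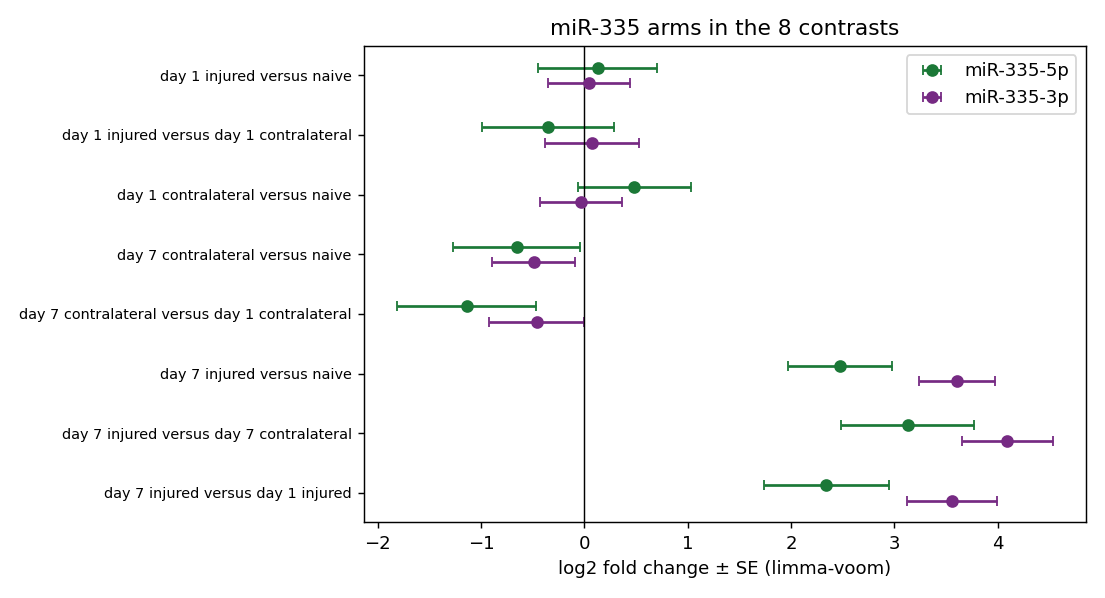
Log2 fold change (points) with its SE (bars) of miR-335-5p and miR-335-3p in the 8 contrasts of the limma-voom fit. In the 5 contrasts without day 7 injured libraries the values lie between -1.14 and 0.48, and in the 3 with them, which are described and not tested, between 2.34 and 4.09.

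The balance of the arms was examined within each library, where depth and scaling cancel. Of the miR-335 counts in naïve libraries, the 5p arm held a mean of 29.3% ± 4.75 (SD, n = 6), with a lowest value of 23.5%, a median of 28.3% and a highest of 36.4%. It held 12.9%, 15.6% and 18.3% in the 3 day 7 injured libraries. The exact 95% intervals in these libraries were 9.04 to 17.6%, 13.7 to 17.7% and 16.6 to 20.2%. Put as a ratio, there were 2.49 ± 0.55 counts of miR-335-3p for each count of miR-335-5p in naïve cartilage (SD, n = 6). In day 7 injured cartilage there were 5.54 ± 1.16 (SD, n = 3).

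In the remaining groups the 5p share was 40.7%, 38.0% and 32.7% in day 1 contralateral, 36.8%, 21.7% and 32.2% in day 1 injured, and 9.09%, 32.3% and 31.5% in day 7 contralateral libraries. The value of 9.09% comes from the library with 1 count of the 5p arm and has an exact interval of 0.230 to 41.3%, so it is not distinguishable from the rest at this depth. With that library aside, the other 14 libraries outside the day 7 injured group lay above the highest day 7 injured share. No such comparison by library is given for other hairpins, so this is not shown to be particular to miR-335.

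The log2 ratio of miR-335-5p to miR-335-3p (0.5 counts added to each) was tested between groups with exact two-sided permutation tests where no day 7 injured library was involved. Day 1 contralateral libraries had a mean of -0.76 ± 0.25 (SD, n = 3) against -1.27 ± 0.32 in naïve libraries (SD, n = 6), with exact permutation p = 0.0714 (adjusted over 5 tests, 0.25). The other 4 tests had adjusted p-values between 0.25 and 0.833. In day 7 versus day 1 contralateral libraries the ratio differed by -0.90, or by -0.33 without day 7 contralateral replicate 1, and against naïve libraries by -0.39, or by 0.18 without it. With 3 against 6 libraries the smallest possible p is 0.0238, and with 3 against 3 it is 0.1. These tests count each library as a separate unit, although naïve libraries share animals. Contralateral knees come from the loaded mice, so day 1 injured and day 1 contralateral libraries share animals too. The day 7 injured mean of -2.44 ± 0.29 (SD, n = 3) differed from the naïve mean by -1.17, which is a further reading of the values that chose the members and was not tested.

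**Figure D3:**
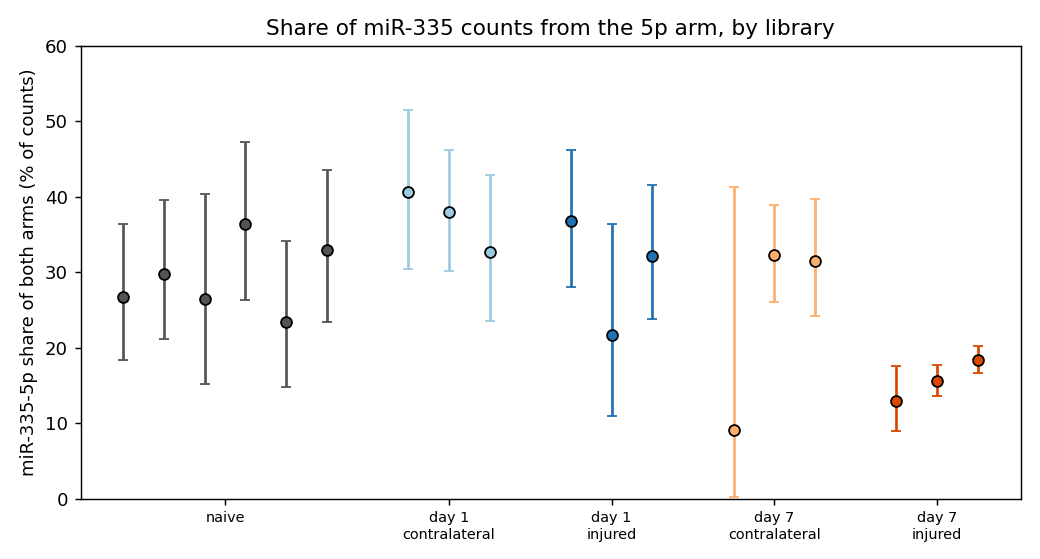
Share of miR-335 counts that came from the 5p arm (% of counts), 1 point per library, with exact 95% binomial intervals as bars. The day 7 injured libraries lie at 12.9 to 18.3%, and the day 7 contralateral library with 1 count of the 5p arm has an interval from 0.230 to 41.3%.

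Among the 111 hairpins with both arms tested, the log2 fold changes of the 2 arms between day 7 injured and naïve libraries differed by a median of 0.37. The difference for miR-335 was 1.13, with the 3p arm the higher, and ranked ninth. Larger differences were led by miR-376b (3.32 for the 3p and 0.58 for the 5p arm), miR-23b (-0.31 and 1.56) and miR-150 (-0.03 and -1.54), a lymphocyte miRNA. In each of these 3 hairpins 1 arm had a naïve mean of 4.22 CPM or less, whereas both arms of miR-335 were above 10 CPM. In 4 hairpins of the 111 both arms had a log2 fold change over 2.

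Profiles over all 18 libraries were compared to find the miRNAs whose pattern was nearest to that of miR-335. Likeness was measured as the root mean square difference in log2 CPM after each profile was centred on its own mean. The arms of miR-335 lay 0.62 apart, against a median of 1.303 between miR-335-5p and the other 426 tested miRNAs of any level. Both arms were chosen for high day 7 injured levels, which brings their profiles together, so this median is not a like yardstick. The 5 nearest to miR-335-5p, among 327 with a mean of at least 10 CPM, were miR-543-3p (0.50), miR-495-3p (0.57), miR-434-5p (0.65), miR-433-3p (0.67) and miR-379-3p (0.70). For miR-335-3p they were miR-34b-3p (0.63), miR-411-3p (0.68), miR-379-3p (0.68), miR-543-3p (0.69) and miR-434-5p (0.75). Of these 7 miRNAs, 6 are encoded in the 12qF1 cluster, the imprinted Dlk1-Dio3 region of chromosome 12, and miR-34b-3p belongs to the miR-34 family, known for its induction by p53. The 12qF1 cluster held 48 of the 428 tested miRNAs. It also held 36 of the 62 that limma-voom called higher in day 7 injured versus naïve libraries, so it is common among profiles high there. The distances describe these libraries, which share groups and depth, and they carry no test.

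The mature sequences of 4 of these miRNAs are shown to set their seeds (capitals, bases 2 to 8) against those of miR-335.
miR-543-3p: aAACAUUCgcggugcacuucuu
miR-379-3p: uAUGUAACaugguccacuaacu
miR-411-3p: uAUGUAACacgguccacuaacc
miR-34b-3p: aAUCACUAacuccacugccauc
They lie at chr12:109717304-109717325, chr12:109709102-109709123 and chr12:109710225-109710246 on the plus strand and at chr9:51103574-51103595 on the minus strand. miR-379-3p and miR-411-3p share a seed with each other, and 0 of the 7 share one with either arm of miR-335. These 7 miRNAs were picked for likeness to arms that are high in day 7 injured libraries, so higher means there follow from the choice. The naïve and day 7 injured means were 8.35 and 41.0 CPM for miR-34b-3p and 575 and 2302 CPM for miR-434-5p. Day 7 contralateral replicate 1 was the lowest of 18 libraries for both arms of miR-335 and for 7 of these 7 miRNAs, with miR-543-3p at 4.12 CPM there and at no less than 24.0 CPM elsewhere. The distances that picked the 7 include this library, so their low values in it are not a separate result. It was the lowest for 26.9% of all tested miRNAs and for 12 of 48 in the 12qF1 cluster. Without that library, an alternative chosen after seeing the data, the 5 nearest to miR-335-5p were miR-495-3p (0.34), miR-21a-5p (0.34), miR-34c-5p (0.36), miR-379-5p (0.37) and miR-21b (0.39), of which 1 was among the former 5. The 5 nearest to miR-335-3p were then miR-34c-5p (0.40), miR-134-5p (0.56), miR-34b-5p (0.59), miR-379-3p (0.60) and miR-34b-3p (0.60), of which 2 were among the former 5. In these lists miR-495-3p, miR-379-5p, miR-134-5p and miR-379-3p are of the 12qF1 cluster. The others are named miR-21 or miR-34. The make-up of both lists thus depends on 1 library.

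**Figure D4:**
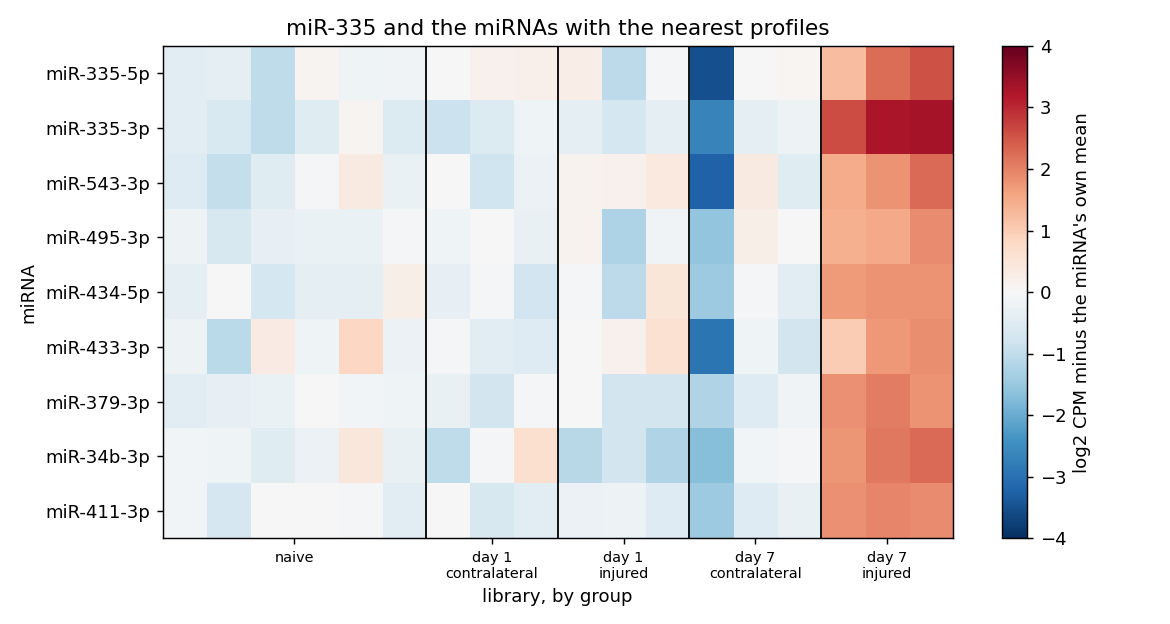
Log2 CPM of the miR-335 arms and the 7 miRNAs with the nearest profiles, each minus its own mean over 18 libraries (colour), with libraries in columns by group. The day 7 injured libraries are high and the first day 7 contralateral library is low in every row.

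miRNAs of other imprinted loci were set beside miR-335, from lists chosen with earlier results of these data known. The 12qF1 cluster, expressed from the maternal allele, had 48 tested miRNAs of 103 in the table. In day 7 injured versus naïve cartilage 48 of 48 had a positive log2 fold change, with a median of 1.69, and 36 passed the limma-voom threshold as higher, where 14.5% of all miRNAs did. Its 2 most abundant members by mean over all 18 libraries were miR-127-3p (1871 ± 456 CPM in naïve, SD, n = 6, and 4293 ± 324 in day 7 injured, SD, n = 3) and miR-379-5p (551 ± 99.3 and 2351 ± 216 CPM). The log2 fold change of miR-335-3p was above that of 48 of the 48, and 2 of them exceeded miR-335-5p.

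The Sfmbt2 intron, a rodent cluster expressed from the paternal allele as Mest is, had smaller values. The fit held 23 of its 75 listed miRNAs, with a median log2 fold change of 0.33 between day 7 injured and naïve cartilage, and 1 was called higher. Its most abundant members by the same mean, miR-467a-5p and miR-669a-5p, had log2 fold changes of 0.38 and 0.33. Several names had the same count in every library, miR-669a-5p and miR-669p-5p among them, so the 23 names are 18 distinct measurements, whose median was 0.35. Of the Gnas, Igf2 and H19 loci, 3 miRNAs of 8 were tested, all of the Gnas locus, and 0 were called. miR-298-5p, miR-296-5p and miR-296-3p had log2 fold changes of -0.03, -0.49 and 0.54. The highest value in either list was 1.21, below both arms of miR-335. In the 5 contrasts without day 7 injured libraries, 0 miRNAs of these 3 lists were called.

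**Figure D5:**
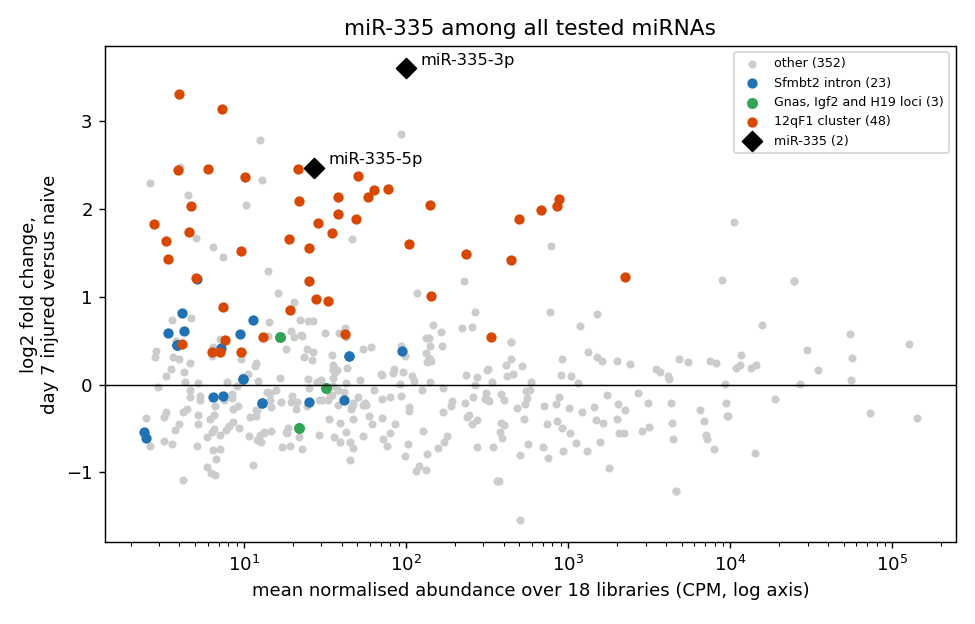
Log2 fold change between day 7 injured and naïve cartilage against mean abundance over 18 libraries (CPM, log axis) for 428 miRNAs, with imprinted loci in colour. miR-335-3p has the highest value (3.60), the 12qF1 cluster lies above 0, and the lists of the Sfmbt2 intron and of the Gnas, Igf2 and H19 loci lie at or below 1.21.

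Markers of cell types were measured in the same libraries. The 4 cartilage miRNAs of the list (miR-140 and miR-455, both arms) were found in every group, with a summed level of 6172 to 10499 CPM in naïve and 6756 to 9983 CPM in day 7 injured libraries. The most abundant of them was miR-140-5p. The 4 skeletal muscle miRNAs, led by miR-1a-3p, summed to more than the cartilage miRNAs in each group, at 67477 to 198861 CPM in naïve and 69610 to 133902 CPM in day 7 injured libraries. Their log2 fold changes in day 7 injured versus naïve libraries were -0.39 (miR-1a-3p), -0.95 (miR-133a-3p), -0.84 (miR-133b-3p) and -0.53 (miR-206-3p). The 4 vascular miRNAs, led by miR-126a-3p, summed to 48221 to 83024 and 74003 to 80724 CPM. In the same contrast their values were 0.30 (miR-126a-3p), 0.17 (miR-126a-5p), 0.19 (miR-143-3p) and -0.65 (miR-145a-5p). The 5 leukocyte miRNAs, led by miR-142a-3p, summed to 2723 to 6591 and 4391 to 4962 CPM. This sum hides differing members, at -1.54 (miR-150-5p), -0.75 (miR-223-3p), -0.19 (miR-142a-5p), 0.18 (miR-142a-3p) and 0.30 (miR-155-5p). The erythroid list (5 names, 4 distinct measurements, led by miR-486a-5p) summed to 5986 to 7928 CPM in naïve and 3081 to 4150 CPM in day 7 injured libraries. Its members did not differ alike. The log2 fold change between these groups was -1.22 for miR-486a-5p, -0.46 for miR-144-5p, -0.25 for miR-451a and -0.007 for miR-144-3p. No marker of the 5 lists was at 0 in any group. The part of these markers in the miR-335 values was not tested.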

How the data were processed

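Small RNA libraries from pooled mouse cartilage were analysed. The authors trimmed the reads, aligned them with Bowtie 1.3.0 to mature miRBase sequences and counted them with SAMtools 1.12, and deposited raw counts per mature miRNA without normalisation. Table rows and sample titles carry the same library numbers behind different prefixes, and the numbers were used to join them. Treatment labels gave the groups.

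Totals ranged from 758388 to 4088852 counts per library, which limits the precision of miRNAs with few counts. miRNAs were filtered with filterByExpr of edgeR 4.0.16 (minimum count 10, minimum total 15), scaled with TMM and fitted with limma 3.58.1 (voom) in R 4.3.3 over all 18 libraries with 1 mean per group. Adjustment was by Benjamini-Hochberg within each contrast, at a threshold of 0.05. The study's duplicateCorrelation term for shared mouse pools could not be used, since the labels do not identify pools. The 27 replicate pairs held 0 identical libraries. Permutation tests used SciPy 1.17.1 and the hairpin was folded with RNAfold 2.7.2. Only the limma-voom fit was run on simulated counts, for day 1 injured versus naïve and with independent libraries. The permutation tests, arm ratios and profile distances were not simulated.

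Both arms and all lists were chosen with earlier results of these data known. Named were both arms, the 5 nearest profiles of each arm, any miRNA with the same seed, the 3 hairpins whose arms differed most, the 2 most abundant members of each imprinted list, rank neighbours and the leading member of each marker list. miR-199b-5p, miR-296-3p and the rank neighbours by fold change were named after their values were seen. RefSeq sequences (GRCm38.p6) were found for 1184 of the 1412 names. Alternatives were other scalings, filters, tests (DESeq2 1.42.0, edgeR quasi-likelihood), quality weights, 2-group fits, pseudocounts and leaving out each library. Nearest profiles and the share without overlap were also computed without day 7 contralateral replicate 1, chosen after seeing the data.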

Additional observations from a re-analysis of the deposited data

How the results depend on the processing

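The log2 fold changes of both arms in the 3 contrasts with day 7 injured libraries kept their sign under all alternatives that gave a value. Leaving out 1 library at a time gave 2.23 to 2.87 (5p) and 3.50 to 3.90 (3p) against naïve, 2.15 to 3.82 and 3.45 to 4.51 against day 7 contralateral, and 2.11 to 2.82 and 3.54 to 3.94 against day 1 injured libraries. In the 5 tested contrasts neither arm passed the threshold under any alternative. Some values changed sign, both values near 0 and larger ones of the contrasts with day 7 contralateral libraries. For day 1 injured versus naïve, library totals only gave -0.059 (5p) and -0.16 (3p), DESeq2 gave -0.039 (3p) and the filter of 10 counts in every library gave -0.0051 (3p). Leave-one-out gave -0.24 to 0.40 (5p) and -0.12 to 0.072 (3p). For day 1 injured versus day 1 contralateral, library totals gave -0.052 (3p) and leave-one-out gave -0.13 to 0.23 (3p). For day 1 contralateral versus naïve, leave-one-out gave -0.26 to 0.089 (3p). With quality weights, day 7 contralateral versus naïve was 0.078 (5p) and 0.076 (3p), and day 7 versus day 1 contralateral was 0.14 (3p). Leave-one-out gave -1.32 to 0.37 and -0.87 to 0.20 in the former and -1.74 to -0.061 (5p) and -0.78 to 0.28 (3p) in the latter, and the upper ends came without day 7 contralateral replicate 1. DESeq2 called 1 miRNA in day 7 contralateral versus naïve and 2 in day 7 versus day 1 contralateral libraries, where limma-voom called 0.

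For the log2 arm ratio, the number of libraries leaves little room for a p under the threshold, so its p-values say nothing about stability. Leave-one-out gave -0.17 to 0.34 in day 1 injured versus naïve and -0.69 to 0.18 in day 7 contralateral versus naïve libraries, and -1.20 to -0.33 in day 7 versus day 1 contralateral libraries. It gave -1.35 to -0.48 in day 7 injured versus day 7 contralateral libraries, with the lower end without day 7 contralateral replicate 1, and -1.32 to -1.03 in day 7 injured versus naïve libraries. The cause of these changes was not tested. The filter of 10 counts in every library removed miR-335-5p, which then had no value, and dropping the pseudocount left out 0 libraries. No paired analysis was possible because the labels carry no replicate numbers or pool names that link libraries. Low counts limit the 5p arm most, since it had between 1 and 70 counts in the 15 libraries outside the day 7 injured group.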
